A study of Mus musculus with 12 samples.

Results

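The 37 genes described here encode the enzymes, carriers and regulators of glycolysis, the pentose phosphate pathway and the transcriptional response to low oxygen. They were taken by symbol from a list of these pathways, all 37 were present among the 24421 genes of the count table, and all 37 were among the 15220 genes with enough counts to be tested. Their counts came from 12 sequenced RNA libraries, 3 from each of 4 groups of mouse embryonic fibroblasts (MEFs). Null MEFs, the control line, and TFEB/TFE3 DKO MEFs, in which both genes were targeted by CRISPR, were each sampled untreated and after 8 hr in 100 µM etoposide, a topoisomerase II poison that breaks DNA. Each genotype was 1 line, both lines were immortalized with SV40, and a difference between genotypes cannot be told apart from a difference between the 2 lines. The study's methods list high glucose medium with pyruvate for wild-type MEFs, and for the knockout MEFs they refer to an earlier report. The labels call the controls untreated where the study's methods describe DMSO. Whether the 3 replicates of a group came from separate cultures is not given in the sources used here, so p-values measure the spread between these libraries, which may be technical.

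Glycolysis splits glucose into pyruvate in a fixed order of enzymes, and many steps have several isozymes encoded by separate genes and used in different tissues. The pentose phosphate pathway branches off after the first phosphorylation and yields NADPH and the ribose of nucleotides. When oxygen is short, prolyl hydroxylases no longer mark HIF-1α for destruction, and HIF raises the transcription of glucose transporters, glycolytic enzymes, Vegfa and other targets through the short DNA core (A/G)CGTG. TFEB and TFE3 bind a related palindromic element, CACGTG, in lysosomal and metabolic genes.

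Tfeb and Tfe3 were examined first in every library. Tfeb was at 38.9, 39.2 and 42.1 CPM in replicates 1 to 3 of untreated Null MEFs and at 4.6, 6.09 and 4.68 CPM in untreated DKO MEFs. After etoposide it was at 11.4, 10.2 and 10.4 CPM in Null and 1.92, 1.61 and 2.2 CPM in DKO MEFs. CPM values were computed on TMM-scaled library sizes. Every DKO library lay below every Null library of the same treatment, and etoposide lowered Tfeb in both lines. Tfe3 was at 109.9 to 115 CPM in untreated Null and 91 to 94.1 CPM in untreated DKO MEFs, and at 63.4 to 71.2 CPM in the 6 etoposide libraries of both lines, so its RNA was still present in the DKO line. Libraries held 45577023 to 104120871 counts on genes. The ribosomal transcript Rn45s took 1.66 to 2.89% of these counts in untreated libraries and 2.98 to 4.38% after etoposide, and its part in the results below was not tested.

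The deposited counts are of uniquely aligned read pairs, which lowers the count of a gene with near-identical copies elsewhere in the genome. Of all 75-base windows in the annotated transcripts of Pgk1, 67.5% were also found in transcripts of 4 other genes. The corresponding share was 55.5% for Gapdh (121 other genes), 44.3% for Eno1, 40.6% for Pgam1 and 29.3% for Bnip3, and the values of these 5 genes are uncertain. The other 32 members had less than 25% shared windows, 23 of them none. The strand setting of the counting is not given, and exons of 14 members overlap a gene on the opposite strand, among them Slc2a1, Gpi1, Pfkm, Pfkp, Bnip3, Ndrg1 and Ankrd37. In all, 3 libraries stood apart for Pgk1 or Gapdh. Pgk1, which makes the first ATP of glycolysis, was at 381, 686 and 688 CPM in the 3 untreated Null libraries, so that replicate 1 lay far below the others. Its departure from the mean of the other 2, -0.85 on the log2 scale, ranked 8 in size among the 2559 genes averaging at least 100.0 CPM over the libraries. Gapdh was at 10.4, 21.7 and 9.84 CPM in untreated Null and 23.9, 10.2 and 9.17 CPM in etoposide-treated Null libraries, with replicate 2 of the former and replicate 1 of the latter high. Results for Pgk1 and Gapdh that use the levels of those libraries are therefore also given below without them.

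Compared per kilobase of exon in untreated Null MEFs, where levels of different genes can be set side by side, Pkm was the most abundant member at 522 ± 8.83 CPM per kb (SD, n = 3). Pgk1 (261 ± 78.8), Ldha (242 ± 4.36) and Tpi1 (225 ± 12.8) followed, then Aldoa at 178 ± 2.91, Vegfa at 144 ± 4.38 and Pgam1, whose count is uncertain, at 87.8 ± 7.88 CPM per kb. The order depends on the length used. With longest transcript length the first were Pkm at 1073 CPM per kb, Ldha at 440.3, Tpi1 at 386, Aldoa at 335 and Pgk1 at 320.5. Without Null control replicate 1 Pgk1 was at 306 CPM per kb of exon, and at 376 with longest transcript length, which put it before Aldoa. By exon length Taldo1, Slc16a1, Tkt, Hif1a, G6pdx and Slc2a1 lay between 52.7 and 34.9 CPM per kb. Gapdh, at 3.38 ± 1.61 CPM per kb, ranked 29 of 37 on these unique counts, and without Null control replicate 2 was at 2.45 CPM per kb and ranked 30. The least abundant were Slc16a3 (0.634 ± 0.118), Aldoc (0.308 ± 0.0543) and Car9 (0.229 ± 0.0352 CPM per kb).

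**Figure D1:**
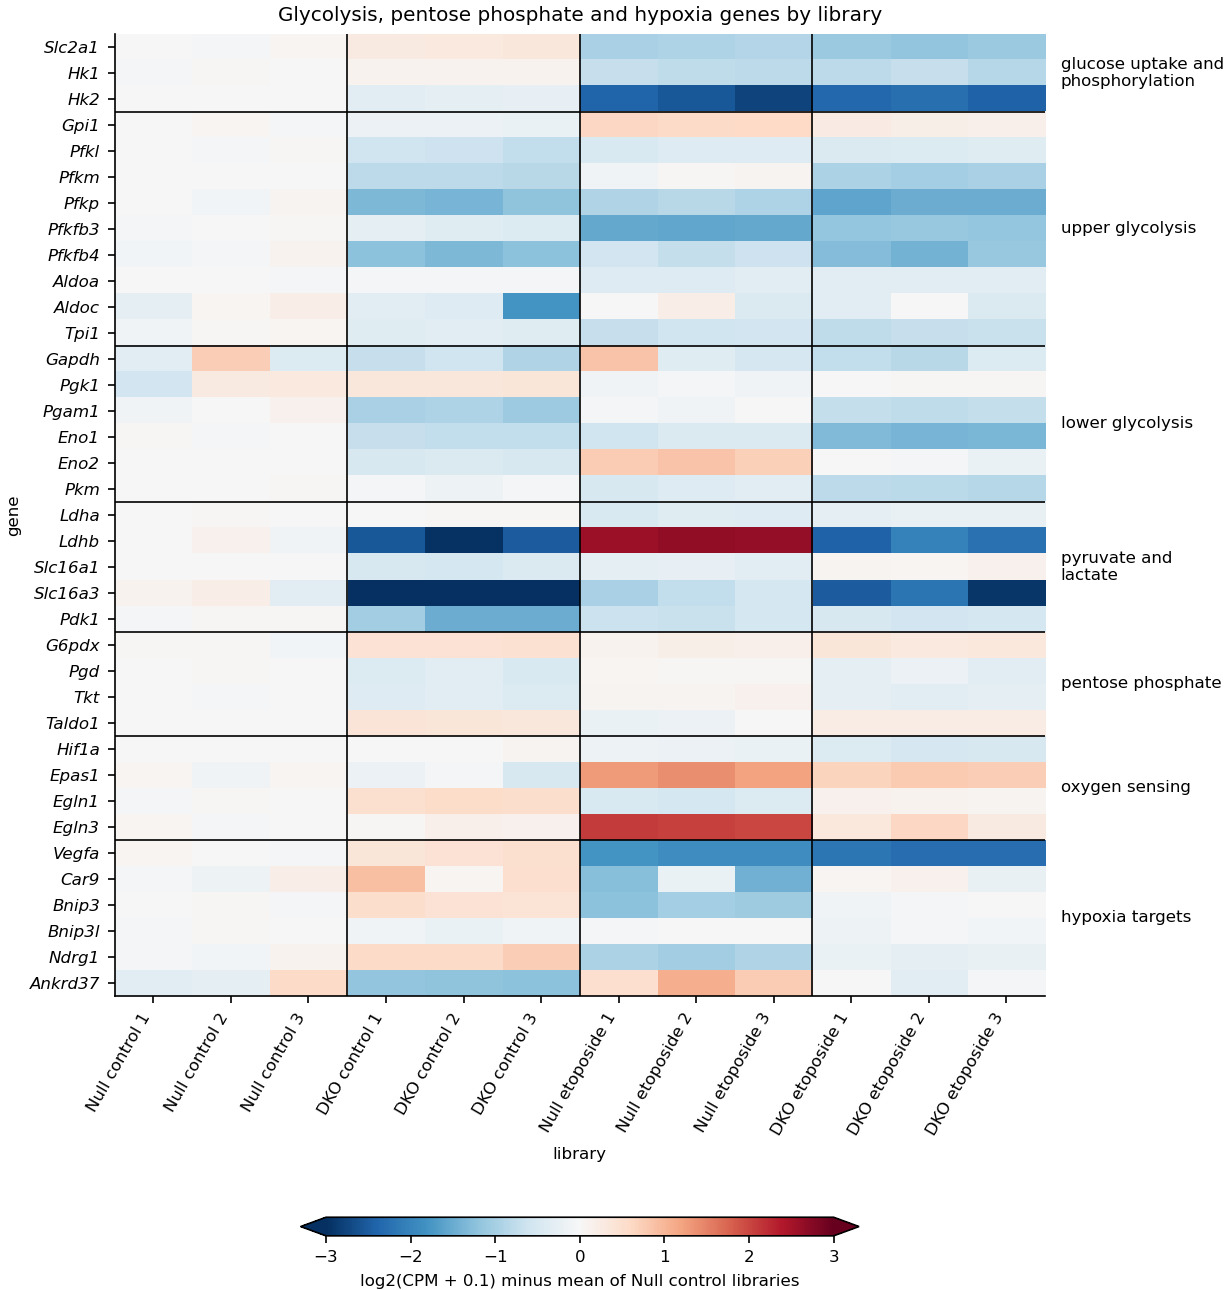
Each row is a gene, grouped by role, each column a library, and the colour gives log2(CPM + 0.1) minus the mean of the 3 untreated Null libraries (red higher, blue lower; the scale ends at 3 on either side). Among the dark blocks are Hk2 and Vegfa (low after etoposide in both lines), Ldhb (high in etoposide-treated Null MEFs and low in DKO MEFs), Egln3 (high in etoposide-treated Null MEFs) and Slc16a3 (low in DKO MEFs).

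The promoters of 7 members are printed as examples, chosen after their values were seen. The 250 bases before the transcription start were taken from RefSeq on GRCm38.p6, where 34 of the 37 members were matched, with 49 promoters in all. Epas1, Bnip3l and Ndrg1 had no entry. The motifs searched on both strands were ACGTG and GCGTG, the cores bound by HIF, and CACGTG, which contains ACGTG on either strand, so a CACGTG is also counted as ACGTG. Capitals mark these runs, each written as it stands on the gene's strand.
Hk2 (chr6:82774455-82774704, minus strand, directly before the gene's first annotated base): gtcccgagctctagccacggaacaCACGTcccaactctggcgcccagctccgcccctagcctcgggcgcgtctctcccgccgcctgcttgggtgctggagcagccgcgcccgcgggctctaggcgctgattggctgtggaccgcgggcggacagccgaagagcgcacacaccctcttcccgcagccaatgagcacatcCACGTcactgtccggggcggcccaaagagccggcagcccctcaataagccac
Vegfa (chr17:46032378-46032627, minus strand, before the gene's outermost start): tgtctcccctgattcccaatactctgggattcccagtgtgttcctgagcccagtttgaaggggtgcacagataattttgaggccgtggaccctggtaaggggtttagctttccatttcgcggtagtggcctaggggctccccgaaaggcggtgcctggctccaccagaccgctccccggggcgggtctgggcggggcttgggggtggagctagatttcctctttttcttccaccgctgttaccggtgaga
Bnip3 (chr7:138909507-138909756, minus strand, with its last 13 bases in the annotated first exon): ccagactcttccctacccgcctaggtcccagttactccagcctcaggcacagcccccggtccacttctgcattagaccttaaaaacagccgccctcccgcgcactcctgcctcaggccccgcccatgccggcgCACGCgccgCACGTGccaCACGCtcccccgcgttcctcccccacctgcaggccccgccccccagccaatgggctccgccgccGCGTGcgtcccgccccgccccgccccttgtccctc
Ldha (chr7:46845554-46845803, plus strand, inside the gene's annotated span and in no exon): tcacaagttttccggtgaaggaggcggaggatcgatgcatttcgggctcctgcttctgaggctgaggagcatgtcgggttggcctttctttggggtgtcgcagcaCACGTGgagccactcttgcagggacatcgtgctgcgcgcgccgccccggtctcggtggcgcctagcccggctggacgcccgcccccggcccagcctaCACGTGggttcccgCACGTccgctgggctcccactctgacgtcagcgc
Ldhb (chr6:142507958-142508207, minus strand, directly before the gene's first annotated base): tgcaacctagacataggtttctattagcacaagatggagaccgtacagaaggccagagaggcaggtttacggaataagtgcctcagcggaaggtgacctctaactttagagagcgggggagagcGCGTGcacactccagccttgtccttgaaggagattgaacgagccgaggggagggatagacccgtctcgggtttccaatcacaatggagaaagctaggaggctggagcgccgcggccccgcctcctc
Egln3 (chr12:54203875-54204124, minus strand, before the gene's first annotated base): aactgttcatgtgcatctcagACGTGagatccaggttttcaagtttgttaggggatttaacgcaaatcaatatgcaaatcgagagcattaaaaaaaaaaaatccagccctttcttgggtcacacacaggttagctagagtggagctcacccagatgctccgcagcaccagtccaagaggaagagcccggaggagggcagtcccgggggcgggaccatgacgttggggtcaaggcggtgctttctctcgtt
Pdk1 (chr2:71872974-71873223, plus strand, directly before the gene's first annotated base): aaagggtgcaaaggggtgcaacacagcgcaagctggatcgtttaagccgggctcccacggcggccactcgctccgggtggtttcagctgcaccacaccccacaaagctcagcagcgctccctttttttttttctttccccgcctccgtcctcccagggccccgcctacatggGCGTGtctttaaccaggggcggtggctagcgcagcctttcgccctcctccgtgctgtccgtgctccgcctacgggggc

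Hk2 held 2 ACGTG runs, starting 226 and 52 bases before the start, and Ldha held CACGTG at 145 and 48 bases with a further CACGT at 34. Bnip3 held a CACGTG at 108 bases between GCGTG cores at 117, 99 and 35. Ldhb and Pdk1 each held a single GCGTG, at 126 and 78 bases, Egln3 a single ACGTG at 229, and the printed window of Vegfa held none of these letters, while a further listed Vegfa start inside the gene had GCGTG and CACGT before it. ACGTG was in 21 of the 49 member promoters (42.9%), in 16.6% of all 32851 promoters and in 20.7% of the 14330 promoters of tested genes. GCGTG was in 55.1% of member promoters, 28.2% of all and 42.4% of those of tested genes. CACGTG was in 6 member promoters (12.2%; Bnip3, Hif1a, Ldha, Pfkfb3, Pfkm and Slc16a1), 6.02% of all and 7.89% of those of tested genes. The longer TCACGTGA was in 0 of the 49, in 0.785% of all and in 1.35% of those of tested genes. The median GC content was 60.4% in member promoters, 52.4% in all and 59.6% in those of tested genes. The members were listed for known roles, several as HIF targets, so these shares describe the list and name no site.

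To ask how the pathway responded to DNA damage with and without TFEB and TFE3, each gene was tested by edgeR's quasi-likelihood method in a joint model of the 12 libraries, adjusted by Benjamini-Hochberg over all 15220 genes, at a threshold of 0.05. In Null MEFs, 22 of the 37 members fell with etoposide (59.5%, where 37.2% of all genes tested fell) and 8 rose (21.6%, where 42.3% of all genes rose). Their median log2 fold change was -0.37, against 0.07 for all genes. In DKO MEFs, 19 members fell (51.4%, with 31.5% among all genes) and 13 rose (35.1%, with 43.7% among all genes), with a median of -0.14 against 0.14. The excess of falls over the background was thus seen in both lines. With library size alone in place of TMM, which moves the median of all genes by 0.17 in Null and 0.27 in DKO MEFs, 19 members fell (51.4%, with 28.9% among all genes) and 11 rose (29.7%, with 51.3% among all genes) in Null MEFs. In DKO MEFs 11 were then lower (29.7%, with 19.7% among all genes) and 17 higher (45.9%, with 61.2% among all genes). This scaling moves all genes of a library alike. It took the share of higher calls among all genes past the threshold from 53.2 to 64.0% in Null and from 58.1 to 75.6% in DKO MEFs.

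Between genotypes, 20 members were lower in untreated DKO than in untreated Null MEFs (54.1%, with 33.4% among all genes) and 8 were higher (21.6%, with 33.3% among all genes), with a median of -0.29 against -0.02. With library size alone 26 were lower (70.3%, with 42.0% among all genes) and 7 higher (18.9%, with 26.1% among all genes), and the share of higher genes among all those past the threshold went from 49.9 to 38.4%. After etoposide 19 were lower in DKO MEFs (51.4%, with 36.6% among all genes) and 10 higher (27.0%, with 37.5% among all genes), with a median of -0.26 against -0.004. The etoposide response itself differed between the lines (interaction) for 22 members. For 12 the response was higher in DKO MEFs (32.4%, with 29.6% among all genes) and for 10 lower (27.0%, with 24.4% among all genes), shares near the background. With library size alone 17 were higher (45.9%, with 37.7% among all genes) and 8 lower (21.6%, with 20.1% among all genes), and the share of higher genes among all those past the threshold went from 54.8 to 65.2%. With DESeq2 size factors that share was 47.5%, and the balance went the other way, with 11 members higher (29.7%, with 24.9% among all genes) and 13 lower (35.1%, with 27.5% among all genes). Aldoc was past the threshold in none of the 5 comparisons. In these bulk libraries, fewer cells expressing a gene and less RNA per cell cannot be told apart. The 2 etoposide comparisons share no library with each other, nor do the 2 genotype comparisons, but each etoposide comparison shares libraries with each genotype comparison.

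**Figure D2:**
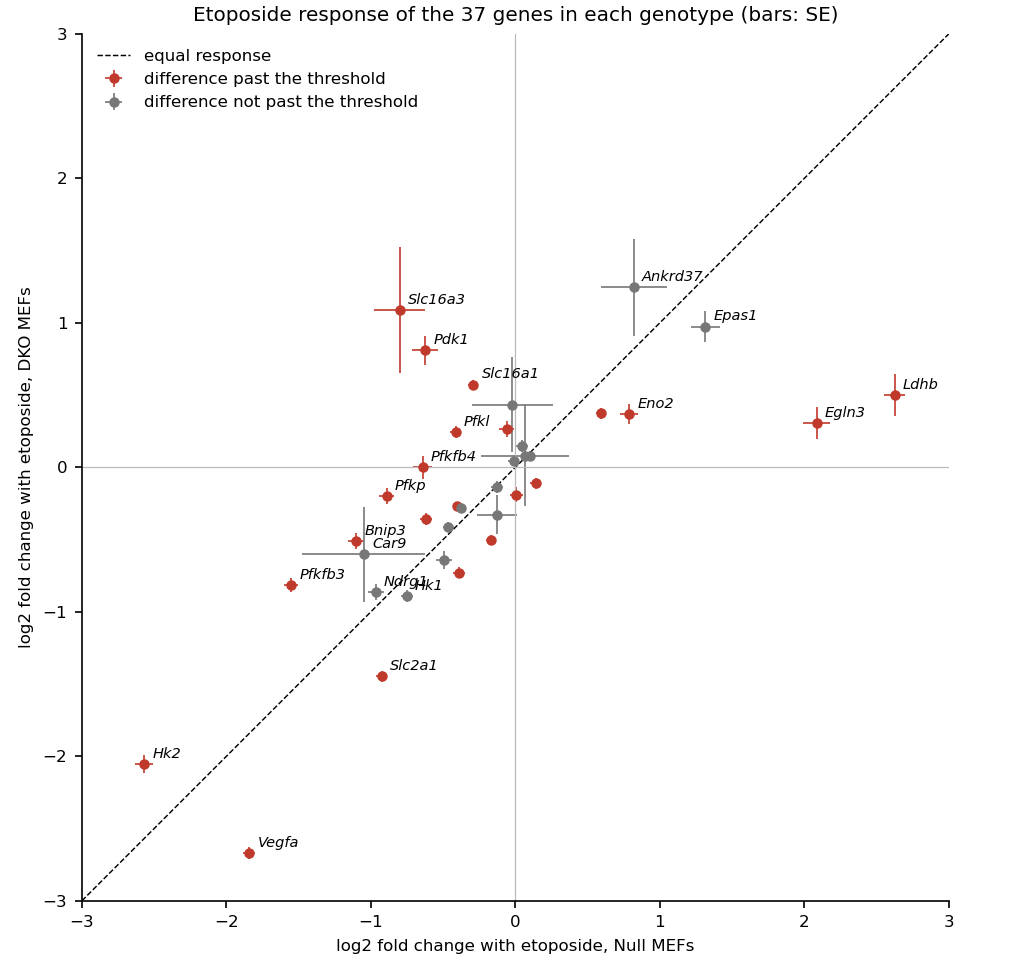
Each point is a gene, with its log2 fold change with etoposide in Null MEFs on the horizontal axis and in DKO MEFs on the vertical axis, bars giving SE, and red marking genes whose responses differed (interaction, 22 genes). Slc16a3, Pdk1, Slc16a1 and Pfkl lie at the upper left (lower in Null, higher in DKO MEFs), and Ldhb and Egln3 lie far to the right, with a larger rise in Null MEFs.

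The 3 members of glucose uptake and its first phosphorylation, Slc2a1, Hk2 and Hk1, fell in both lines, where 37.2% of all genes fell in Null and 31.5% in DKO MEFs. Not all genes of these steps fell, as the transporter Slc2a8, described further below, rose in both lines. Slc2a1, the basal glucose transporter GLUT1 (chr4:119108711-119137983, plus strand, GENCODE M21 on GRCm38), was at 123, 117 and 126 CPM in untreated Null and 148, 150.03 and 155 CPM in untreated DKO MEFs, and after etoposide at 62.6, 64.5 and 66 CPM in Null and 56.2, 53.9 and 56.1 CPM in DKO MEFs. All 6 treated libraries lay below all 6 untreated ones, and the DKO line moved from above the Null line to below it. The log2 fold change with etoposide was -0.93 (SE 0.04, adjusted p = 2.18e-13) in Null and -1.45 (SE 0.04, adjusted p = 9.39e-16) in DKO MEFs by edgeR, and the responses differed by -0.52 (SE 0.05, adjusted p = 2.42e-07). Hk2, the inducible hexokinase (chr6:82725025-82774454, minus strand), was at 119, 121 and 121 CPM in untreated Null and 95.4, 98.3 and 101 CPM in untreated DKO MEFs. After etoposide it was at 22.5, 20.5 and 17.5 CPM in Null and 23.6, 25 and 22.4 CPM in DKO MEFs. Treated and untreated libraries were far apart, while the treated libraries of the lines overlapped at 22.4 to 22.5 CPM. Its log2 fold change was -2.57 (SE 0.06, adjusted p = 3.2e-16) in Null and -2.05 (SE 0.06, adjusted p = 7.49e-15) in DKO MEFs, the smaller fall in DKO MEFs giving an interaction of 0.52 (SE 0.09, adjusted p = 9.02e-05). DKO MEFs were lower in Hk2 when untreated (-0.29, adjusted p = 0.000257) and higher after etoposide (0.22, adjusted p = 0.00604), the latter falling to 0.17 (adjusted p = 0.0583) without replicate 2 of treated DKO MEFs and to 0.14 (adjusted p = 0.0291) without replicate 3 of treated Null MEFs. Hk1, the constitutive hexokinase, fell from 119 ± 3.25 to 70.7 ± 2.26 CPM in Null and from 128 ± 0.443 to 69.3 ± 3.78 CPM in DKO MEFs (SD, n = 3 each; -0.75 and -0.89 on the log2 scale). The higher Hk1 of untreated DKO MEFs (0.11, adjusted p = 0.0237) turned to -0.01 with library size alone. It was 0.08 (adjusted p = 0.128) without Null control replicate 1, and 0.10 (adjusted p = 0.0841), 0.11 (adjusted p = 0.065) and 0.11 (adjusted p = 0.053) without DKO control replicates 1, 2 and 3. The Hk1 interaction (-0.14, adjusted p = 0.0518) became -0.19 (adjusted p = 0.01) without replicate 2 of treated DKO MEFs and -0.15 (adjusted p = 0.0421) without replicate 3 of treated Null MEFs.

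In upper glycolysis, from glucose 6-phosphate to the triose phosphates, 6 of 9 members fell in Null MEFs (with 37.2% among all genes) and 5 in DKO MEFs (with 31.5% among all genes). In untreated DKO MEFs 7 were lower than in untreated Null MEFs (with 33.4% among all genes). Pfkl, the liver-type phosphofructokinase and the most abundant of the 3 here, was at 158, 157 and 164 CPM in untreated Null and 106, 104 and 95.1 CPM in untreated DKO MEFs, and after etoposide at 117, 121 and 122 CPM in Null and 118, 119 and 124 CPM in DKO MEFs. The untreated lines were well separated and the treated ones overlapped, as Pfkl fell in Null (-0.41, SE 0.04, adjusted p = 3.85e-08) and rose in DKO MEFs (0.24, SE 0.04, adjusted p = 3.58e-05), with an edgeR interaction of 0.66 (SE 0.06, adjusted p = 2.99e-08). Pfkp, the platelet type, was at 48.9, 46.4 and 51.5 CPM in untreated Null and 19.1, 18.6 and 21 CPM in untreated DKO MEFs, and after etoposide at 26.2, 27.2 and 25.7 CPM in Null and 16.4, 17.2 and 17.3 CPM in DKO MEFs. Every DKO library was below every Null library, with log2 fold changes of -1.32 (SE 0.05, adjusted p = 5.02e-13) untreated and -0.63 (SE 0.06, adjusted p = 1.59e-08) after etoposide. Its fall with etoposide was -0.89 in Null and -0.20 in DKO MEFs, where library size alone turned it to 0.07. Pfkm, the muscle type, was lower in DKO MEFs untreated (-0.80, adjusted p = 6.68e-11) and after etoposide (-0.997, adjusted p = 3.01e-12), and fell with etoposide in DKO MEFs (-0.19, adjusted p = 0.00222; 0.08 with library size alone). Its interaction, -0.19 (adjusted p = 0.0202), was -0.15 (adjusted p = 0.0585) without replicate 3 of treated Null MEFs.

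Pfkfb3 and Pfkfb4 make fructose 2,6-bisphosphate, the activator of phosphofructokinase. Pfkfb3 (chr2:11471433-11554077, minus strand) was at 40.9, 41.2 and 42.8 CPM in untreated Null and 34.7, 32.6 and 31.5 CPM in untreated DKO MEFs, and after etoposide at 14.3, 14.1 and 14.2 CPM in Null and 18.7, 19 and 18.5 CPM in DKO MEFs. The groups did not overlap, and the order of the lines reversed with treatment. The fall was -1.55 (SE 0.05, adjusted p = 4.73e-15) in Null and -0.81 (SE 0.05, adjusted p = 5.07e-11) in DKO MEFs, with an interaction of 0.74 (SE 0.07, adjusted p = 6.17e-08). Pfkfb4 was at 26.1, 27 and 29.3 CPM in untreated Null and 11.6, 10.7 and 11.6 CPM in untreated DKO MEFs, and after etoposide at 18.3, 16.8 and 17.7 CPM in Null and 11, 10.1 and 12.4 CPM in DKO MEFs. All 6 DKO libraries lay below all 6 Null libraries. It fell in Null MEFs (-0.64, SE 0.07, adjusted p = 1.35e-07), while in DKO MEFs the log2 fold change was -0.0011 (SE 0.08, adjusted p = 0.991), and the responses differed by 0.64 (SE 0.10, adjusted p = 4.83e-05). The DKO value was 0.27 with library size alone, 0.01 (adjusted p = 0.903) without DKO control replicate 3, and 0.05 (adjusted p = 0.565) and -0.11 (adjusted p = 0.245) without treated DKO replicates 2 and 3. Aldoa, the aldolase of most tissues, was at 520.1, 527 and 510.4 CPM in untreated Null, 496, 499 and 499 CPM in untreated DKO, 395, 399.8 and 408 CPM in treated Null and 413, 408 and 410.4 CPM in treated DKO MEFs. Treated libraries were below untreated ones in both lines, and the treated lines were at nearly equal levels. It fell with a log2 fold change of -0.37 (SE 0.03, adjusted p = 1.14e-09) in Null and -0.28 (SE 0.03, adjusted p = 8.53e-08) in DKO MEFs by edgeR. The difference of Aldoa between untreated lines, -0.06 (adjusted p = 0.0675), was -0.06 (adjusted p = 0.0477) without replicate 3 of treated DKO MEFs. Its interaction, 0.09 (adjusted p = 0.0533), was 0.11 (adjusted p = 0.0346) without Null control replicate 3 and 0.11 (adjusted p = 0.0312) without replicate 3 of treated Null MEFs. Gpi1, phosphoglucose isomerase, was the member of this group that rose in both lines. It lay at 126 to 134 CPM in untreated and 193 to 198 CPM in treated Null MEFs, and at 113 to 116 and 145 to 155 CPM in DKO MEFs, a smaller rise, with an interaction of -0.22 (adjusted p = 0.00101). Tpi1, triose phosphate isomerase, fell with a log2 fold change of -0.62 in Null and -0.36 in DKO MEFs. After etoposide it differed between lines by -0.09 (adjusted p = 0.0655), which passed the threshold without Null control replicate 1, -0.09 (adjusted p = 0.0284), DKO control replicates 1, -0.11 (adjusted p = 0.0302), or 2, -0.11 (adjusted p = 0.0284), treated Null replicate 1, -0.13 (adjusted p = 0.0156), or treated DKO replicates 2, -0.11 (adjusted p = 0.0445), or 3, -0.12 (adjusted p = 0.0285). Aldoc, the brain-type aldolase, lay at 0.218 to 1.16 CPM over all libraries, and its difference between untreated lines, -0.71 (adjusted p = 0.0587), became -0.87 (adjusted p = 0.0422) without Null control replicate 1, -0.90 (adjusted p = 0.0432) without DKO control replicate 1 and -0.97 (adjusted p = 0.0427) without DKO control replicate 2. It shrank to -0.40 (adjusted p = 0.226) without DKO control replicate 3, the lowest of its group.

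**Figure D3:**
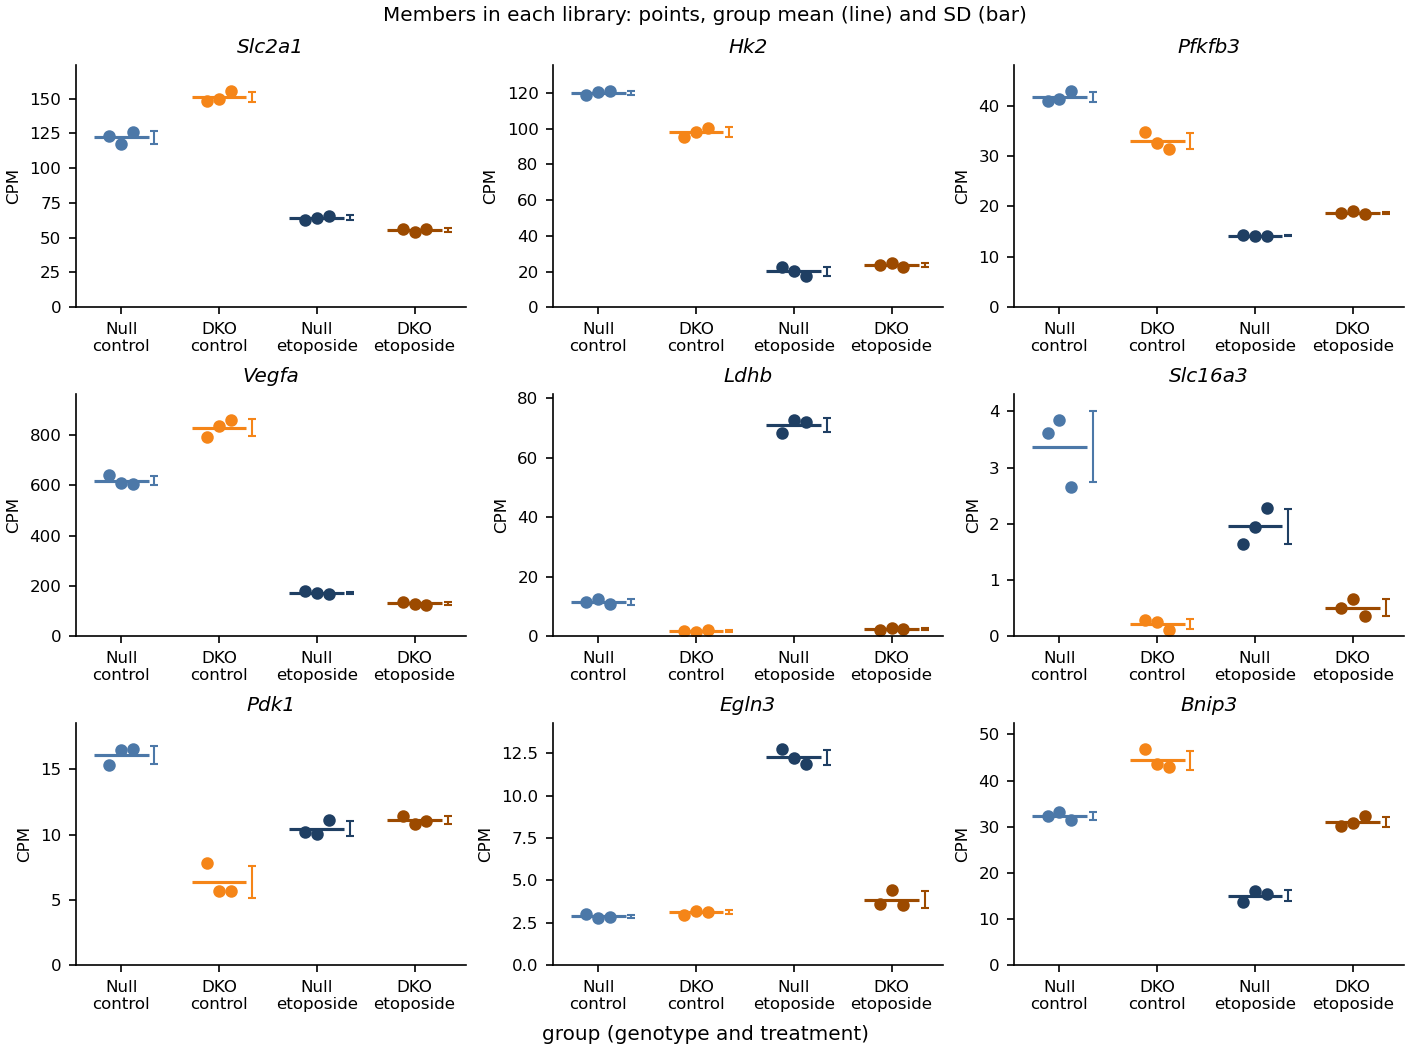
Points give CPM in each of the 3 libraries of a group for 9 genes, with a line at the group mean and a bar for the SD. Slc2a1, Hk2, Pfkfb3 and Vegfa are low in all 6 etoposide libraries, Ldhb and Egln3 are high in the 3 treated Null libraries only, and Slc16a3 is low in the 6 DKO libraries.

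In lower glycolysis, from glyceraldehyde 3-phosphate to pyruvate, 4 of 6 members were lower in DKO than in Null MEFs when untreated (with 33.4% among all genes) and 5 after etoposide (with 36.6% among all genes). Both counts include Gapdh, which lost the threshold each time without a single high library. By edgeR its untreated difference was -0.35 (adjusted p = 0.347) without Null control replicate 2. After etoposide it was -0.21 (adjusted p = 0.487) without replicate 1 of treated Null MEFs. Pkm, pyruvate kinase of muscle and most growing cells, lay at 2568 to 2656 CPM in untreated Null and 2348 to 2513 CPM in untreated DKO MEFs, and fell to 1883 to 2080.1 and 1441 to 1504 CPM. The fall was -0.73 (SE 0.04, adjusted p = 2.4e-11) in DKO and -0.39 (SE 0.04, adjusted p = 7.99e-08) in Null MEFs, with an interaction of -0.34 (adjusted p = 7.13e-05). The untreated lines differed in Pkm by -0.09 (adjusted p = 0.0623), which passed the threshold without DKO control replicate 1, at -0.11 (adjusted p = 0.0497). It also passed without replicates 1 or 3 of treated Null MEFs, at -0.09 (adjusted p = 0.0284) and -0.09 (adjusted p = 0.0397), and without replicate 3 of treated DKO MEFs, at -0.09 (adjusted p = 0.0429). Eno1, the enolase of most cells and of uncertain count here, was at 23.6, 22.7 and 23.1 CPM in untreated Null, 14.3, 13.9 and 13.8 CPM in untreated DKO, 15.3, 17 and 17 CPM in treated Null and 9.23, 8.79 and 8.94 CPM in treated DKO MEFs. Its DKO libraries were the lower ones under each treatment, and no 2 groups overlapped. It fell in both lines, with log2 fold changes of -0.49 (SE 0.05, adjusted p = 2.15e-07) in Null and -0.64 (SE 0.06, adjusted p = 4.63e-08) in DKO MEFs, and the interaction of -0.15 (adjusted p = 0.143) became -0.20 (adjusted p = 0.044) without replicate 1 of treated Null MEFs. Eno2, the neuronal enolase, rose in both lines. It lay at 13.5 to 13.9 CPM in untreated and 22.7 to 24.9 CPM in treated Null MEFs, and at 9.73 to 10.2 and 11.8 to 13.9 CPM in DKO MEFs, with an edgeR interaction of -0.42 (SE 0.09, adjusted p = 0.000977).

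Pgam1, phosphoglycerate mutase (chr19:41911923-41918660, plus strand), was at 160.1, 171 and 191 CPM in untreated Null and 87.9, 90.9 and 81.8 CPM in untreated DKO MEFs, and after etoposide at 166, 161 and 173 CPM in Null and 105, 102 and 106 CPM in DKO MEFs. All DKO libraries lay below all Null libraries, with log2 fold changes of -1.001 (SE 0.05, adjusted p = 2.4e-11) untreated and -0.68 (SE 0.05, adjusted p = 3.51e-09) after etoposide. In DKO MEFs it rose (0.26, SE 0.05, adjusted p = 0.000341), and in Null MEFs the log2 fold change was -0.06 (adjusted p = 0.303), or 0.11 with library size alone, -0.13 (adjusted p = 0.0368) without Null control replicate 1 and -0.001 (adjusted p = 0.985) without Null control replicate 3. Gapdh, glyceraldehyde-3-phosphate dehydrogenase, was at 8.03, 8.64 and 6.98 CPM in untreated and 7.85, 7.26 and 9.75 CPM in treated DKO MEFs, next to the Null values given above. Outside the high libraries, the Null values lay between 9.17 and 10.4 CPM and overlapped those of treated DKO MEFs. The lower Gapdh of DKO MEFs was -0.80 (SE 0.33, adjusted p = 0.04) untreated by edgeR and -0.35 (adjusted p = 0.347) without Null control replicate 2. It also lost the threshold without DKO control replicates 1 (-0.82, adjusted p = 0.0776), 2 (-0.89, adjusted p = 0.0666) and 3 (-0.73, adjusted p = 0.101). After etoposide the difference was -0.79 (SE 0.32, adjusted p = 0.035), and -0.21 (adjusted p = 0.487) without replicate 1 of treated Null MEFs, -0.78 (adjusted p = 0.0692) without replicate 1 and -0.71 (adjusted p = 0.094) without replicate 2 of treated DKO MEFs. Its etoposide change of 0.07 (adjusted p = 0.849) in Null MEFs turned negative without treated Null replicate 1, -0.52 (adjusted p = 0.0691), Null control replicate 1, -0.13 (adjusted p = 0.736), or Null control replicate 3, -0.13 (adjusted p = 0.721), and was 0.51 (adjusted p = 0.117) without the high Null control replicate 2. That of 0.08 (adjusted p = 0.841) in DKO MEFs turned to -0.09 (adjusted p = 0.855) without treated DKO replicate 3 and was 0.16 (adjusted p = 0.727) without treated DKO replicate 2. Pgk1 was at 524, 551 and 528 CPM in treated Null, 712, 715 and 723 CPM in untreated DKO and 561, 574 and 579 CPM in treated DKO MEFs, and was chosen for display after its values were seen. With all libraries its log2 fold change in Null MEFs was -0.13 (SE 0.14, adjusted p = 0.395), or 0.04 with library size alone, and without Null control replicate 1 it was -0.37 (adjusted p = 3.31e-08). Without Null control replicates 2 or 3 it was -0.01 (adjusted p = 0.96) and -0.01 (adjusted p = 0.967). The fall in DKO MEFs was -0.33 (adjusted p = 0.0401), and -0.34 (adjusted p = 3.64e-08) without Null control replicate 1, as the spread is pooled over the groups. With that library kept, leaving out any 1 of the 6 DKO libraries put it between -0.36 and -0.32 with adjusted p of 0.0545 to 0.0753. Between untreated lines the difference of 0.29 (adjusted p = 0.069) became 0.06 (adjusted p = 0.152), 0.43 (adjusted p = 0.014) and 0.43 (adjusted p = 0.0153) without Null control replicates 1, 2 and 3, and between treated lines 0.10 (adjusted p = 0.54) became 0.09 (adjusted p = 0.0126) without Null control replicate 1.

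Among the members, the widest differences between the lines were those of Ldhb and Slc16a3, both in the group around pyruvate and lactate. Ldhb, the heart-type lactate dehydrogenase subunit that favours lactate oxidation (chr6:142490249-142507957, minus strand), was at 11.4, 12.5 and 10.7 CPM in untreated Null and 1.9, 1.38 and 1.95 CPM in untreated DKO MEFs. After etoposide it reached 68.5, 72.6 and 71.9 CPM in Null MEFs and was at 2.04, 2.73 and 2.35 CPM in DKO MEFs. All 6 DKO libraries stayed under 3 CPM, and the 3 treated Null libraries were above every other library. The rise was 2.62 (SE 0.07, adjusted p = 9.84e-16) in Null and 0.50 (SE 0.14, adjusted p = 0.00463) in DKO MEFs, the latter 0.29 (adjusted p = 0.0825) without DKO control replicate 2, and the responses differed by -2.12 (SE 0.17, adjusted p = 8.73e-09). The log2 fold change of DKO against Null MEFs was -2.76 (SE 0.11, adjusted p = 3.23e-13) untreated and -4.88 (SE 0.09, adjusted p = 1.77e-17) after etoposide. Ldha, the subunit that favours lactate production, was at 789, 816 and 793 CPM in untreated Null and 803, 813 and 824 CPM in untreated DKO MEFs, and after etoposide at 587, 617 and 610.1 CPM in Null and 656, 683 and 685 CPM in DKO MEFs. The untreated lines overlapped, and all treated libraries were lower than all untreated ones. It fell with a log2 fold change of -0.40 (SE 0.03, adjusted p = 2.1e-09) in Null and -0.27 (SE 0.03, adjusted p = 5.94e-07) in DKO MEFs by edgeR, the latter 0.0035 with library size alone. The interaction of 0.13 (adjusted p = 0.0181) was 0.11 (adjusted p = 0.0751) and 0.11 (adjusted p = 0.0581) without DKO control replicates 1 and 2, 0.11 (adjusted p = 0.0509) without replicate 1 of treated Null MEFs and 0.11 (adjusted p = 0.0589) without replicate 2 of treated DKO MEFs.

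Slc16a3, the lactate exporter MCT4 (chr11:120948480-120960868, plus strand), was at 3.61, 3.84 and 2.66 CPM in untreated Null and 0.286, 0.261 and 0.117 CPM in untreated DKO MEFs, the latter resting on 7 to 24 counts a library. After etoposide it was at 1.65, 1.95 and 2.27 CPM in Null and 0.506, 0.655 and 0.357 CPM in DKO MEFs. Every DKO library was below every Null library, with log2 fold changes of -3.88 (SE 0.28, adjusted p = 1.39e-09) untreated and -1.99 (SE 0.26, adjusted p = 2.62e-06) after etoposide. It fell in Null (-0.80, SE 0.17, adjusted p = 0.000462) and rose in DKO MEFs (1.09, SE 0.44, adjusted p = 0.0332), with an interaction of 1.89 (SE 0.47, adjusted p = 0.00246). The rise was 1.21 (adjusted p = 0.0625) and 0.84 (adjusted p = 0.108) without DKO control replicates 2 and 3, and 1.06 (adjusted p = 0.0586) and 0.81 (adjusted p = 0.151) without replicates 1 and 2 of treated DKO MEFs. Slc16a1, the widely expressed carrier MCT1, was at 223, 221 and 226 CPM in untreated Null and 159, 156 and 166 CPM in untreated DKO MEFs, and after etoposide at 183, 188 and 176 CPM in Null and 235, 233 and 246 CPM in DKO MEFs. The Null line was the higher of the pair when untreated and the lower after etoposide, without overlap. It fell in Null (-0.29, SE 0.03, adjusted p = 6.24e-07) and rose in DKO MEFs (0.57, SE 0.04, adjusted p = 1.1e-10), with an interaction of 0.86 (SE 0.05, adjusted p = 1.61e-10). Pdk1, the kinase that shuts pyruvate dehydrogenase (chr2:71873224-71903858, plus strand), was at 15.3, 16.4 and 16.5 CPM in untreated Null and 7.79, 5.65 and 5.65 CPM in untreated DKO MEFs, and after etoposide at 10.2, 10 and 11.1 CPM in Null and 11.4, 10.8 and 11.1 CPM in DKO MEFs. The untreated lines were apart and the treated lines overlapped. It fell in Null (-0.62, SE 0.09, adjusted p = 5.35e-06) and rose in DKO MEFs (0.81, SE 0.10, adjusted p = 1.26e-06), with an interaction of 1.43 (SE 0.13, adjusted p = 8.08e-08). Of the 37 members, 5 rose with etoposide in a line and fell in the other (Pfkl, Slc16a1, Slc16a3, Pdk1 and G6pdx). The interaction of each was past the threshold, which adds little, as it is the difference of the same 2 responses. These 5 genes were 13.5% of the members, with 8.92% among all genes tested (1358 of 15220). With library size alone G6pdx rose in both lines and Pfkfb4 took its place, leaving 5 members (13.5%, with 10% among all genes).

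**Figure D4:**
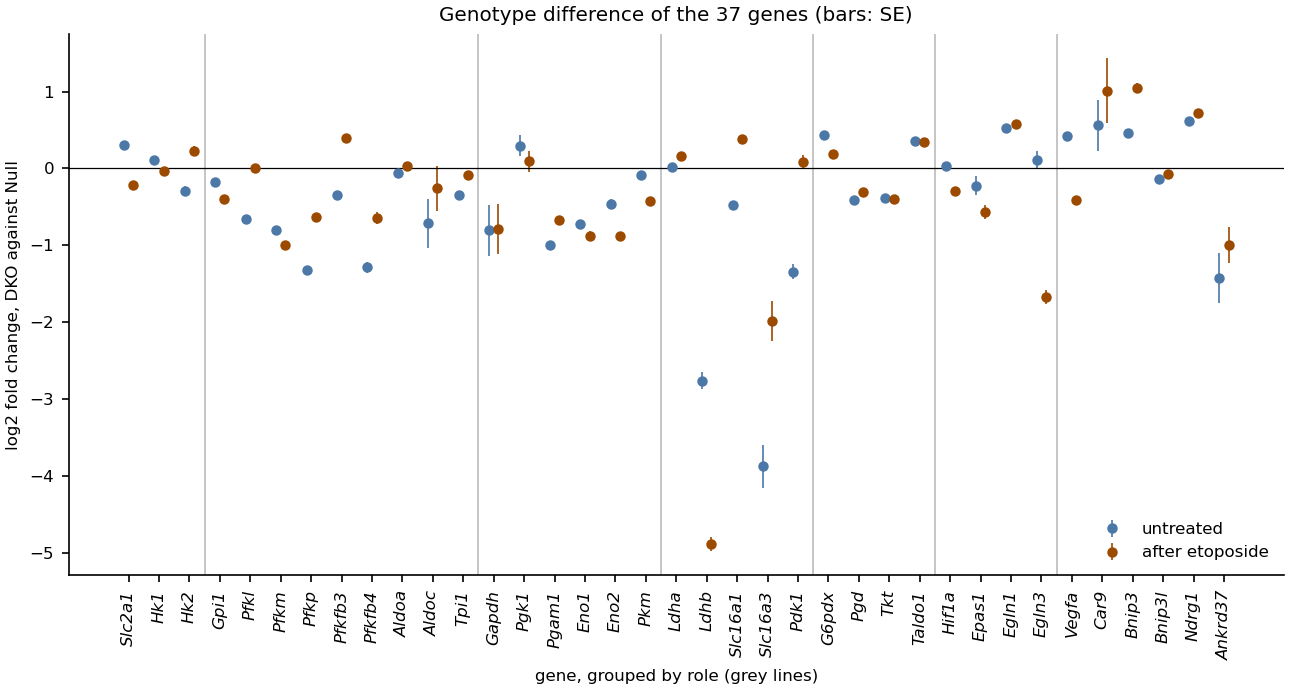
Each gene has its log2 fold change of DKO against Null MEFs, untreated in blue and after etoposide in brown, with SE bars and grey lines between roles. Ldhb (-2.76 and -4.88) and Slc16a3 (-3.88 and -1.99) lie lowest. Slc2a1, Hk2, Pfkfb3, Slc16a1 and Vegfa are past the threshold under both treatments with opposite signs. These 5 genes are 13.5% of the members, with 11.4% among all genes tested. Other genes, among them Egln3 and Pdk1, also change sign but are not past the threshold under both treatments.

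Among the members, the 4 pentose phosphate enzymes had log2 fold changes between -0.41 and 0.43 over the 4 comparisons of groups. The pathway's other genes did not all stay within this range. Of 8 tested, 7 rose with etoposide in each line (87.5%, with 42.3% among all genes in Null and 43.7% in DKO MEFs). Their median log2 fold changes were 1.01 in Null and 0.43 in DKO MEFs. G6pdx, the X-linked first enzyme and main source of NADPH, was at 110.2 to 119 CPM in untreated Null and 156 to 158 CPM in untreated DKO MEFs (0.43, SE 0.04, adjusted p = 9.52e-09). It rose with etoposide in Null (0.14, adjusted p = 0.00208) and fell in DKO MEFs (-0.11, adjusted p = 0.0116), where library size alone gave 0.16. Taldo1, transaldolase, was also higher in DKO MEFs, at 144 to 149 against 113 to 116 CPM untreated (0.36, SE 0.04, adjusted p = 3.8e-07). Its falls with etoposide were -0.13 (adjusted p = 0.00849) in Null and -0.14 (adjusted p = 0.0054) in DKO MEFs, and turned to 0.04 and 0.14 with library size alone; without replicate 3 of treated Null MEFs the first was -0.19 (adjusted p = 6.72e-05). Pgd, 6-phosphogluconate dehydrogenase, and Tkt, transketolase, were lower in DKO MEFs, with log2 fold changes of -0.41 (adjusted p = 1.13e-07) and -0.38 (adjusted p = 6.07e-09) untreated. The rise of Pgd in DKO MEFs, 0.15 (adjusted p = 0.00376), was 0.09 (adjusted p = 0.0635) without replicate 2 of treated DKO MEFs. Tkt rose by 0.10 (adjusted p = 0.00697) in Null MEFs, which was 0.08 (adjusted p = 0.0654) without Null control replicate 2 and 0.07 (adjusted p = 0.0502) without replicate 3 of treated Null MEFs. Its rise of 0.08 (adjusted p = 0.0263) in DKO MEFs lost the threshold without any of DKO control replicates 1 to 3, at 0.05 (adjusted p = 0.244), 0.07 (adjusted p = 0.0921) and 0.07 (adjusted p = 0.106). It also lost it without Null control replicate 1, 0.07 (adjusted p = 0.0551), treated Null replicate 2, 0.07 (adjusted p = 0.0523), and treated DKO replicates 1, 0.06 (adjusted p = 0.14), and 3, 0.06 (adjusted p = 0.133).

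Among the oxygen sensors, Hif1a, the regulated subunit of HIF-1, was at 232, 229 and 231 CPM in untreated Null and 235, 232 and 245 CPM in untreated DKO MEFs, and after etoposide at 207, 206 and 202 CPM in Null and 173, 164 and 165 CPM in DKO MEFs. Untreated lines overlapped, and the treated DKO libraries were the lowest of all. It fell with a log2 fold change of -0.17 (SE 0.03, adjusted p = 0.000103) in Null and -0.50 (SE 0.03, adjusted p = 1.95e-10) in DKO MEFs, an interaction of -0.33 (SE 0.05, adjusted p = 7.78e-06) by edgeR. Hif1a RNA does not report the HIF-1α protein, which is set by its degradation and was not measured here. Epas1, which encodes HIF-2α (chr17:86753700-86833410, plus strand), was at 3.88, 3.49 and 3.89 CPM in untreated Null and 3.29, 3.58 and 2.67 CPM in untreated DKO MEFs, and after etoposide at 9.25, 9.97 and 8.81 CPM in Null and 5.97, 6.58 and 6.37 CPM in DKO MEFs. It was higher in every treated library than in any untreated one, and the treated Null libraries were above the treated DKO ones. The rise was 1.31 (SE 0.10, adjusted p = 1.35e-09) in Null and 0.97 (SE 0.11, adjusted p = 3.42e-07) in DKO MEFs. The interaction, -0.34 (adjusted p = 0.0661), was -0.43 (adjusted p = 0.0192) without DKO control replicate 3, and the difference between untreated lines, -0.22 (adjusted p = 0.114), was -0.33 (adjusted p = 0.0406) without DKO control replicate 2 and -0.12 (adjusted p = 0.388) without DKO control replicate 3.

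Egln3, the prolyl hydroxylase PHD3 and itself a known HIF target (chr12:54178981-54203860, minus strand), was at 3, 2.8 and 2.86 CPM in untreated Null and 2.98, 3.21 and 3.15 CPM in untreated DKO MEFs. After etoposide it was at 12.7, 12.2 and 11.8 CPM in Null and 3.62, 4.45 and 3.52 CPM in DKO MEFs. The untreated lines overlapped, and only the treated Null libraries were above 5 CPM. The rise was 2.09 (SE 0.10, adjusted p = 1.07e-12) in Null and 0.31 (SE 0.11, adjusted p = 0.0206) in DKO MEFs, with an interaction of -1.78 (SE 0.15, adjusted p = 2.33e-08). The DKO rise was 0.25 (adjusted p = 0.0905) and 0.30 (adjusted p = 0.0563) without DKO control replicates 1 and 2, and 0.17 (adjusted p = 0.176) without replicate 2 of treated DKO MEFs. Egln1, the main prolyl hydroxylase PHD2, went the other way and fell with a log2 fold change of -0.47 in Null and -0.41 in DKO MEFs, and was higher in DKO MEFs under both treatments (0.52 and 0.58), without overlap of the lines.

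Of the 6 hypoxia targets outside glycolysis, 4 fell and 1 rose in Null MEFs, where 37.2% of all genes fell and 42.3% rose. In DKO MEFs 3 fell and 1 rose, where 31.5% of all genes fell and 43.7% rose. Vegfa, the endothelial growth factor (chr17:46016993-46032369, minus strand), was at 640.3, 609.9 and 606 CPM in untreated Null and 793, 836 and 859 CPM in untreated DKO MEFs, and after etoposide at 178, 171 and 169 CPM in Null and 138, 127 and 126 CPM in DKO MEFs. No groups overlapped, and the DKO line was the higher when untreated and the lower after etoposide. It fell with a log2 fold change of -1.84 (SE 0.04, adjusted p = 9.27e-17) in Null and -2.67 (SE 0.04, adjusted p = 2.19e-18) in DKO MEFs, with an interaction of -0.83 (SE 0.06, adjusted p = 1.81e-09) by edgeR. Bnip3, a mitophagy receptor of uncertain count (chr7:138890836-138909519, minus strand), was at 32.4, 33.2 and 31.5 CPM in untreated Null and 46.8, 43.6 and 42.9 CPM in untreated DKO MEFs, and after etoposide at 13.8, 16 and 15.4 CPM in Null and 30.1, 30.9 and 32.3 CPM in DKO MEFs. The DKO libraries were the higher under each treatment, and treated DKO MEFs overlapped untreated Null MEFs. It fell with a log2 fold change of -1.10 (SE 0.06, adjusted p = 7.1e-12) in Null and -0.51 (SE 0.05, adjusted p = 1.58e-07) in DKO MEFs, with an interaction of 0.59 (SE 0.08, adjusted p = 5.74e-06). Bnip3l, its paralog, was at 94.7 to 98.4 CPM over the Null and 84.9 to 94.8 CPM over the DKO libraries. Its log2 fold change with etoposide was -0.01 (adjusted p = 0.793) in Null MEFs, or 0.16 with library size alone. In DKO MEFs it was 0.05 (adjusted p = 0.278), or -0.01 (adjusted p = 0.796) without DKO control replicate 2 and -0.0003 (adjusted p = 0.998) without treated DKO replicate 2. Its lower level in untreated DKO MEFs was -0.13 (adjusted p = 0.00483). After etoposide the lines differed in Bnip3l by -0.08 (adjusted p = 0.079), or -0.12 (adjusted p = 0.0126) without replicate 2 of treated DKO MEFs, and -0.10 (adjusted p = 0.0325) and -0.10 (adjusted p = 0.0244) without DKO control replicates 1 and 2.

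Ndrg1, a stress-responsive growth regulator, fell in both lines. It lay at 89.1 to 101 CPM in untreated and 45.3 to 50.1 CPM in treated Null MEFs, at 139 to 156 and 76.5 to 81.8 CPM in DKO MEFs, and was higher in the DKO line, at 0.62 (SE 0.05, adjusted p = 1.25e-08) untreated and 0.72 (SE 0.06, adjusted p = 1.96e-09) after etoposide. Ankrd37, a small ankyrin repeat protein gene with 406 of 1539 exon bases overlapping opposite-strand genes, was the hypoxia target that rose. It was at 0.885, 0.922 and 1.73 CPM in untreated Null and 0.436, 0.435 and 0.419 CPM in untreated DKO MEFs, and after etoposide at 1.65, 2.51 and 1.97 CPM in Null and 1.11, 0.874 and 1.09 CPM in DKO MEFs. Replicate 3 of untreated Null MEFs lay within the range of treated Null MEFs, and under each treatment all DKO libraries were below all Null libraries. The rise was 0.82 (SE 0.23, adjusted p = 0.00345) in Null and 1.25 (SE 0.33, adjusted p = 0.00296) in DKO MEFs. The latter rests on 25 to 40 counts a library in untreated DKO MEFs. Car9, a membrane carbonic anhydrase, was near the lower limit of detection, at 0.504, 0.461 and 0.618 CPM in untreated Null, 1.07, 0.554 and 0.788 CPM in untreated DKO, 0.159, 0.448 and 0.131 CPM in treated Null and 0.546, 0.587 and 0.437 CPM in treated DKO MEFs. Replicate 2 of treated Null MEFs stood above the other replicates of its group. By edgeR it fell in Null MEFs with a log2 fold change of -1.05 (SE 0.42, adjusted p = 0.0315), which was -1.84 (adjusted p = 0.00254) without that library, and lost the threshold without Null control replicates 1 (-1.09, adjusted p = 0.0544) or 3 (-0.95, adjusted p = 0.0883) and without treated Null replicates 1 (-0.79, adjusted p = 0.124) or 3 (-0.80, adjusted p = 0.11). After etoposide Car9 was higher in DKO MEFs by 1.01 (SE 0.42, adjusted p = 0.0396), which was 1.79 (adjusted p = 0.00347) without treated Null replicate 2. It lost the threshold without treated Null replicates 1 (0.74, adjusted p = 0.159) or 3 (0.75, adjusted p = 0.137) and without treated DKO replicates 1 (0.96, adjusted p = 0.0784) or 2 (0.88, adjusted p = 0.119). Without DKO control replicate 2 its change in DKO MEFs went from -0.60 (adjusted p = 0.107) to -0.90 (adjusted p = 0.0289) and its difference between untreated lines from 0.56 (adjusted p = 0.147) to 0.82 (adjusted p = 0.0482). Without DKO control replicate 1 the same values shrank to -0.37 (adjusted p = 0.368) and 0.29 (adjusted p = 0.512).

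Isozyme make-up was taken per library as each gene's share of its family's CPM per kb of exon, and with 3 libraries against 3 an exact permutation test cannot go below p = 0.1, so the values are given without a test. Hk2 held 58.7 to 59.5% of the hexokinase pair in untreated Null MEFs and 51.4 to 52.8% in untreated DKO MEFs. After etoposide it held 26.7 to 30.5% and 32.7 to 32.8%, so Hk1 was the larger part in all 6 treated libraries. With longest transcript length in place of exon length, Hk2 held less than Hk1 in every group. Ldhb made up 2.77 to 3.13% of the lactate dehydrogenase pair in untreated Null and 19.8 to 19.9% in treated Null MEFs, against 0.357 to 0.495% and 0.652 to 0.836% in DKO MEFs. The treated Null libraries thus stood alone. By longest transcript length Ldhb held 14.0 to 14.1% in them and 0.432 to 0.553% in treated DKO MEFs. Eno2 held 40.2 to 40.5% of the enolase pair in untreated Null and 43.9 to 45.6% in untreated DKO MEFs, and 60.5 to 63.4% and 60.2 to 63.2% after etoposide, with Eno1 uncertain. With longest transcript length Eno2 held 49.2 to 52.4% in treated Null and 48.9 to 52.2% in treated DKO MEFs. Pfkl held 54.4 to 55.5% of the phosphofructokinases in untreated Null, 57.4 to 59.5% in untreated DKO, 49.1 to 50.8% in treated Null and 65.2 to 66.3% in treated DKO MEFs. The lines moved apart with treatment, with Pfkm at 43.5 to 45.8% in treated Null and 29.1 to 30.3% in treated DKO MEFs. By longest transcript length Pfkm held 33.6 to 35.6% in treated Null and 21.1 to 22.2% in treated DKO MEFs. Pfkl then held 59.0 to 60.6% and 73.5 to 74.4%. Aldoa held over 99% of the aldolase pair in all 12 libraries, and Slc16a1 held 98.6 to 99.9% of the lactate carrier pair.

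**Figure D5:**
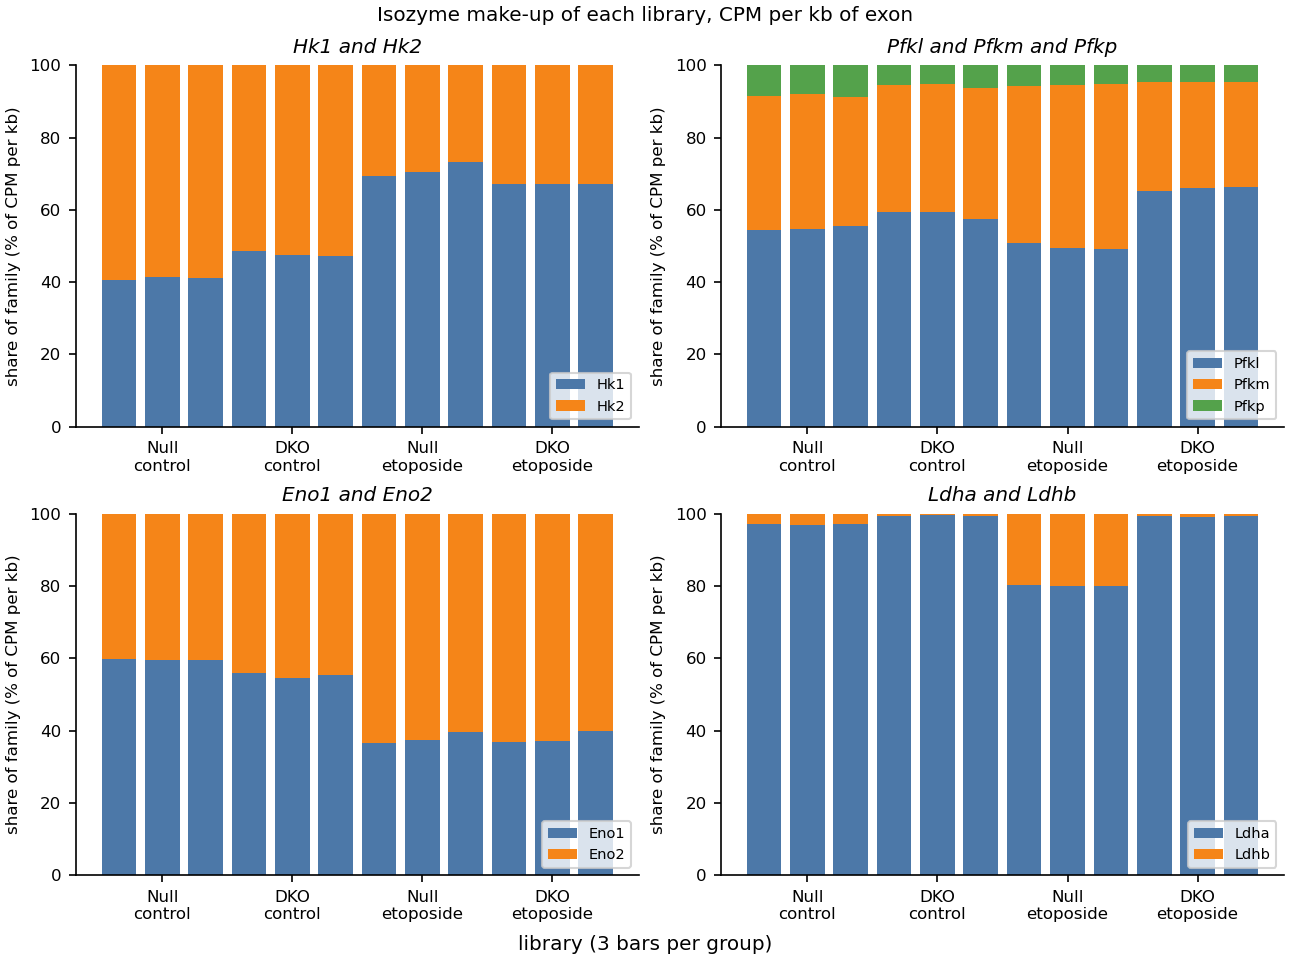
Each bar is a library, 3 per group, and its colours give the share of each isozyme in the family's CPM per kb of exon, from 0 to 100%. By exon length, Hk1 and Eno2 hold the larger part of their pairs after etoposide in both lines, and Ldhb reaches 19.9% in treated Null MEFs alone.

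A further 88 genes of these pathways were listed, of which 79 were tested. In Null MEFs 36 rose and 30 fell with etoposide, together 83.5% of those tested, with 79.4% among all genes. The falls were 38.0% of those tested, with 37.2% among all genes. In DKO MEFs 34 rose and 30 fell (81.0%, with 75.1% among all genes), the falls being 38.0%, with 31.5% among all genes. Untreated DKO MEFs were higher in 34 and lower in 25 (74.7%, with 66.7% among all genes), and treated DKO MEFs were higher in 27 and lower in 30 (72.2%, with 74.0% among all genes). The interaction was past the threshold for 51, 22 of them higher and 29 lower (64.6%, with 54% among all genes), the lower ones being 36.7%, with 24.4% among all genes. The difference between these genes and the members was not tested.

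The rankings that follow are among those of these genes that averaged at least 10 CPM and, except for the interaction, had no overlap of the compared groups. Large falls with etoposide in Null MEFs were those of Bhlhe40, a hypoxia-induced repressor (-2.20, SE 0.06, adjusted p = 3.38e-16), and Loxl2, a lysyl oxidase (-1.62). The largest rises among the genes so chosen were of Slc2a8, the intracellular transporter GLUT8 (2.23, SE 0.07, adjusted p = 5.37e-15), Car12, a carbonic anhydrase (1.88), and Prps2, which makes phosphoribosyl pyrophosphate (1.45). In DKO MEFs Bhlhe40 (-3.46, SE 0.06, adjusted p = 2.74e-18) and Cited2, a HIF-induced regulator (-1.70), were among those that fell far, and Slc2a8 (1.20), the ADP-dependent glucokinase Adpgk (0.84) and Car12 (0.83) rose furthest of the genes so chosen. Bhlhe40 lay at 129.98 to 144 CPM in untreated and 29.3 to 31.5 CPM in treated Null MEFs, and at 273 to 286 and 23 to 27.5 CPM in DKO MEFs. It therefore started higher in the DKO line and ended near the Null line. By the same choice, untreated DKO MEFs were lowest against Null MEFs in Loxl2 (-3.11, SE 0.05, adjusted p = 1.61e-18), Arnt2, a HIF partner of neurons (-2.89), and Pdk4, a pyruvate dehydrogenase kinase (-1.19), and among the higher genes were Bpgm, the 2,3-bisphosphoglycerate mutase (1.74, SE 0.06, adjusted p = 3.27e-14), and Lox, a lysyl oxidase (1.62). After etoposide, again among the genes so chosen, Pdk4 (-2.23), Arnt2 (-1.998) and Loxl2 (-1.98) were lowest, and Lox (1.48), Adpgk (0.99) and the mitochondrial pyruvate carrier Mpc2 (0.97) highest. The responses differed widely for Bpgm (-1.78, SE 0.08, adjusted p = 1.34e-11) and Bhlhe40 (-1.27) on the lower side, and for Gys1, muscle glycogen synthase (1.26, SE 0.06, adjusted p = 2.8e-11), Loxl2 (1.13) and Ero1l, an oxidoreductase of the endoplasmic reticulum (0.98), on the higher side. All these adjusted p are from the same edgeR fit.

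Markers of cell type also moved with the groups. The 12 fibroblast markers summed to 7593, 7556 and 7733 CPM in untreated Null and 12344, 13064.5 and 12448 CPM in untreated DKO MEFs, and to 4072, 3936 and 3925 CPM and 5448, 5512 and 5157 CPM after etoposide, with Vim or Fn1 the most abundant in each library. With etoposide 10 of the 12 fell in Null (with 37.2% among all genes) and 11 in DKO MEFs (with 31.5% among all genes). Thy1, a defining fibroblast antigen, was at 4.03 to 4.5 CPM in untreated Null and 0.0168 to 0.0602 CPM in untreated DKO MEFs. It was the 1 marker of the 12 that was lower there (with 33.4% among all genes), the other 11 being higher (with 33.3% among all genes). After etoposide 10 were higher in DKO MEFs (with 37.5% among all genes) and 2 lower (with 36.6% among all genes). The lower ones were Thy1 and Vim, the latter at 790 to 807 CPM in treated DKO and 1610 to 1640 CPM in treated Null MEFs. The 15 markers of epithelial, immune, endothelial, muscle and neural cells summed to 58.1, 58.7 and 61.6 CPM in untreated Null and 17.9, 17.2 and 18.3 CPM in untreated DKO MEFs. After etoposide they summed to 114, 113 and 121 CPM in Null and 38.1, 37.1 and 40.1 CPM in DKO MEFs, with Tubb3 the most abundant in all 12 libraries. Adgre1, Myod1, Myog and Sox10 were at 0 in all 6 untreated libraries. In Null MEFs Des, of muscle, lay at 2.01 to 2.24 CPM untreated and 33.2 to 38.2 CPM treated, and Cd68, of macrophages, at 1.2 to 1.59 and 11.5 to 12.5 CPM. In DKO MEFs Des lay at 0.316 to 0.489 CPM untreated and 2.23 to 2.57 CPM treated, and Cd68 at 1.26 to 2.09 and 2.85 to 3.47 CPM, smaller rises, with interactions of -1.49 (adjusted p = 0.000141) and -2.02 (adjusted p = 1.24e-06). Tubb3 lay at 53.1 to 56.9 CPM untreated and 59.2 to 65.4 CPM treated in Null MEFs and at 14.2 to 16.2 and 28.8 to 31 CPM in DKO MEFs, the larger rise, with an interaction of 0.81 (adjusted p = 1.02e-07). Epcam also had a higher response in DKO MEFs (2.37, adjusted p = 0.0174). That value rests on 4, 5 and 0 counts in the untreated and 11, 25 and 18 in the treated DKO libraries. No other of these markers that was tested had an interaction past the threshold. Genes with at least 1 count numbered 14809 to 15822 in untreated and 17912 to 19215 in treated libraries. The part of these shifts in the changes of the glycolysis and hypoxia genes was not tested.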

How the data were processed

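RNA from 12 libraries of Null and TFEB/TFE3 DKO MEFs, 3 per group, was described by a table of counts per gene symbol that the authors deposited. Of the aligned pairs, 53.4 to 63.1% lay on genes, and the 5 closing lines of the table held the others, with 20.2 to 27.3% in no feature and 15.9 to 20.5% not unique. The submitters' processing notes name HISAT2, featureCounts and mm10. The study's methods name FastQC, Cutadapt, HISAT2, unique pairs and HTSeq on GENCODE comprehensive annotation. Neither versions nor the strand setting used in counting is given in the sources used here.

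Groups were taken from the labels. Genes kept by filterByExpr (15220 of 24421) were scaled by TMM and fitted in a single group model of all 12 libraries with the edgeR quasi-likelihood method (edgeR 4.0.16, R 4.3.3). The 5 contrasts were etoposide in each genotype, DKO against Null MEFs under each treatment, and their interaction. Adjusted p-values are Benjamini-Hochberg over all genes tested, with a threshold of 0.05. Levels between genes are CPM per kb of summed exon length (GENCODE M21). Windows of 75 bases were looked up in all GENCODE M21 transcripts, and promoters of 250 bases were read on both strands. Python 3.11.15 and pandas 2.3.3 made the tables.

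Alternatives were DESeq2 1.42.0, limma 3.58.1 with trend and robust options (prior count 2), DESeq2 size factors in edgeR, library size alone, no filter, a mean of at least 1 CPM, the replicate number as a block, only the 6 libraries compared, each library left out in turn, and longest transcript length. Counting only members with less than 25% shared windows was an alternative chosen after seeing the data. A group with a library left out keeps 2, and its spread is pooled with the other groups.

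Counts on genes ran from 66956083 to 83970210 in untreated Null, 66749645 to 104120871 in untreated DKO, 63286195 to 76125320 in treated Null and 45577023 to 94388705 in treated DKO libraries. In the library of lowest depth, after TMM scaling, 1 CPM is 49.4 counts, so Car9, Aldoc, Slc16a3 and Ankrd37 rest on few. The chi-square per degree of freedom between replicates was 11.1 to 23, above the value of 1 that counting alone gives.

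All 37 members are named. Values in every library are given for members with an absolute log2 fold change of at least 1 past the threshold in any contrast, for the most abundant isozyme of each family, and for Gapdh and Hif1a. Of the other pathway genes, up to 3 with the largest rise and 3 with the largest fall per contrast are named, if past the threshold, averaging 10 CPM or more over the libraries and without overlap of the groups (overlap not asked for the interaction). The members and lists were chosen with earlier results of these data known. No library was left out, and 27 symbols damaged to dates and 2 duplicated symbols hold no member.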

Additional observations from a re-analysis of the deposited data

Results flagged for a closer look

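The etoposide response of 22 of the 37 members differed between the genotypes in a test of the difference itself, the edgeR interaction term with Benjamini-Hochberg adjustment over all genes. This share, 59.5%, stands beside 54% among all genes tested. Values are the log2 fold change with etoposide in DKO MEFs minus that in Null MEFs. For 10 genes the response was lower in DKO MEFs: Ldhb (-2.12), Egln3 (-1.78), Vegfa (-0.83), Slc2a1 (-0.52), Eno2 (-0.42), Pkm (-0.34), Hif1a (-0.33), G6pdx (-0.25), Gpi1 (-0.22) and Pfkm (-0.19). For 12 it was higher: Ldha (0.13), Tpi1 (0.26), Pgam1 (0.32), Hk2 (0.52), Bnip3 (0.59), Pfkfb4 (0.64), Pfkl (0.66), Pfkp (0.69), Pfkfb3 (0.74), Slc16a1 (0.86), Pdk1 (1.43) and Slc16a3 (1.89). The values for Pfkm and Ldha lost the threshold when certain single libraries were left out: Pfkm was -0.15 (adjusted p = 0.0585) without replicate 3 of treated Null MEFs. Ldha was 0.11 without DKO control replicate 1 (adjusted p = 0.0751), DKO control replicate 2 (adjusted p = 0.0581), treated Null replicate 1 (adjusted p = 0.0509) or treated DKO replicate 2 (adjusted p = 0.0589). With library size alone 17 members were higher and 8 lower, and with DESeq2 size factors 11 were higher and 13 lower. The calls lost under these scalings are not named here. Each genotype is a single line, so the difference cannot be told apart from a difference between lines. No formal test for outlying libraries was applied to these groups of 3.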

How the results depend on the processing

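Each of the 185 results for a member in a comparison was recomputed under up to 20 alternatives, 3653 values in all. Of these, 3423 kept their direction and their side of the threshold, 78 kept the direction and were no longer past the threshold, 83 kept the direction and were now past it, and 69 changed sign. The counts of members and other pathway genes past the threshold stayed within 1.5 times the reported count in all alternatives run except for the members lower with etoposide in DKO MEFs, which were 11 with library size alone and 19 as reported. Library size alone differs from TMM by its scaling factors. The cause was not tested further.

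With library size alone, the sign changed with etoposide in Null MEFs for Aldoc (0.15), Pgk1 (0.039), Pgam1 (0.11), Taldo1 (0.041) and Bnip3l (0.16), with etoposide in DKO MEFs for Pfkm (0.085), Pfkp (0.073), Pfkfb4 (0.27), Ldha (0.0035), G6pdx (0.16) and Taldo1 (0.14), between untreated genotypes for Hk1 (-0.012), Ldha (-0.095), Hif1a (-0.084) and Egln3 (-0.012), between treated genotypes for Pfkl (-0.0088), for the interaction for Tkt (0.087) and Taldo1 (0.096). With DESeq2, the sign changed with etoposide in Null MEFs for Bnip3l (0.034), between treated genotypes for Pfkl (-0.053) and Aldoa (-0.025), for the interaction for Gapdh (-0.034), Egln1 (-0.010) and Bnip3l (-0.0053). With DESeq2 size factors in edgeR, the sign changed with etoposide in Null MEFs for Aldoc (0.024) and Bnip3l (0.034), between treated genotypes for Pfkl (-0.053) and Aldoa (-0.025), for the interaction for Gapdh (-0.049), Egln1 (-0.010) and Bnip3l (-0.0057). With no filter, the sign changed with etoposide in Null MEFs for Pfkm (-0.022), between treated genotypes for Pfkl (-0.013). With the filter at a mean of at least 1 CPM, the sign changed with etoposide in Null MEFs for Pgam1 (0.025) and Bnip3l (0.074), with etoposide in DKO MEFs for Pfkfb4 (0.034), between treated genotypes for Pfkl (-0.058) and Aldoa (-0.030), for the interaction for Gapdh (-0.036). The cause was not tested.

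Values with etoposide in Null MEFs ran, over the single libraries left out, from -0.041 to 0.053 for Pfkm (0.006 with all 12), from -0.18 to 0.13 for Aldoc (-0.021 with all 12) and from -0.52 to 0.51 for Gapdh (0.066 with all 12). Values with etoposide in DKO MEFs ran, over the single libraries left out, from -0.11 to 0.052 for Pfkfb4 (-0.0011 with all 12), from -0.090 to 0.16 for Gapdh (0.081 with all 12) and from -0.013 to 0.057 for Bnip3l (0.046 with all 12). Values between treated genotypes ran, over the single libraries left out, from -0.027 to 0.021 for Pfkl (0.0066 with all 12). Values for the interaction ran, over the single libraries left out, from -0.43 to 0.60 for Gapdh (0.015 with all 12), from -0.33 to 0.034 for Pgk1 (-0.20 with all 12) and from -0.046 to 0.048 for Taldo1 (-0.01 with all 12). Most of these values lie near 0 with all libraries, and the cause was not tested.

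With single libraries left out, the members higher and lower ran from 7 to 8 and 21 to 23 with etoposide in Null MEFs, 9 to 13 and 18 to 19 in DKO MEFs, 7 to 9 and 19 to 22 between untreated genotypes, 8 to 11 and 18 to 21 between treated genotypes, and 11 to 13 and 10 to 11 for the interaction. With the replicate block the members higher and lower were 8 and 22, 13 and 19, 9 and 21, 10 and 19, and 12 and 10 in the same order. After group means were removed, 0 of 18 pairs of libraries that share a replicate number correlated above 0.1 (-0.032 to 0.043), and 7 of the 12 libraries correlated best with a library of their own number.

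Counting only the 32 members with less than 25% shared windows, an alternative chosen after seeing the data, gave 8 and 20; 12 and 16; 7 and 17; 9 and 16; 10 and 10 higher and lower in the same order. Depth limits Car9, Aldoc, Slc16a3 and Ankrd37, which lie near 1 CPM or below in several groups.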
